A study of Homo sapiens with 6 samples.

Results

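Splicing factor genes of 4 families were examined in FUJIOKA, a cell line from a human acute myeloid leukaemia, with and without silencing of SPINK2. The members were taken by name, as genes named SRSF or SNRP, HNRNP, and SF3A or SF3B with their number or letters, and rows named as a pseudogene of a member were left out. Of the 63236 rows of the table, 243 matched these patterns, 184 of them were pseudogenes of a member and 59 rows remained as members, which carry 58 symbols because HNRNPCL2 is listed under 2 gene identifiers. They comprise 12 SRSF, 26 HNRNP, 12 SNRP and 9 SF3 rows.

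Splicing removes introns from pre-mRNA on the spliceosome, which is built from small nuclear RNAs and their proteins. The SNRP genes encode proteins of the small nuclear ribonucleoproteins, among them the Sm proteins that close as a ring around the RNA, and the SF3 genes encode the SF3A and SF3B complexes, through which the U2 particle holds the branch site. SRSF genes encode serine and arginine rich proteins, which mostly favour the use of the exons they bind, whereas hnRNP proteins coat the transcript and often act against them. SF3B1 and SRSF2 are recurrently mutated in myeloid malignancies.

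The series holds 3 shNEG libraries, whose cells carried a scrambled shRNA, and 3 shSPINK2 libraries, whose cells carried an shRNA against SPINK2. All cells were of this 1 line, were transduced with a lentiviral vector, and received doxycycline to induce the shRNA, the controls too. The labels describe 2 SPINK2 shRNAs and the methods 1, and no label says which one a library carried or whether libraries came from separate cultures. What was used of the table is the authors' mean over all 6 libraries of read counts divided by DESeq2 size factors, hereafter the mean normalized count. The table has no value per library, and the authors' own fold changes and p-values were not used, so no difference between shNEG and shSPINK2 is given for any gene. A level below is therefore 1 value over silenced and control cells together, and its spread between libraries is not known.

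The means sum to 38425214 reads per library, and 16131 genes reached a mean of 10, hereafter expressed genes. The 6 size factors, recovered from genes with 1 read in 1 library, lie between 0.985 and 1.03. Markers of the myeloid lineage were abundant in the authors' means, from 1844 for MPO to 44097 for LYZ, and the leukocyte gene PTPRC had 9179. Among markers of other lineages, HBB and EPCAM were at 0, MS4A1 and CD3E were under 1 and CD3D had 3.64, whereas KRT8 had 96.3 and CD79A 183. The progenitor markers CD34 and KIT were low, with 19.6 and 0.666. SPINK2, the targeted gene, had a mean of 32.3, from which the silencing cannot be checked.

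To compare genes with each other, each mean was divided by the length of the canonical transcript and is given as the mean normalized count per 1000 bases, with counting error alone. Over the 15993 expressed genes with an annotated length, the median of this level was 218, and the top 10% began at 1988. Over the 12444 of these that are protein-coding, as all annotated members are, the median was 352. The top 10% was taken over all 15993 and with this length alone. The splicing factors stood high in this order. Of the 58 annotated members 53 were above both medians and 38 were in the top 10%, and 52 of the 59 rows had a mean of at least 1000. The counting error of these 52 was at most 1.18%, and it says nothing of the spread between cultures.

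**Figure D1:**
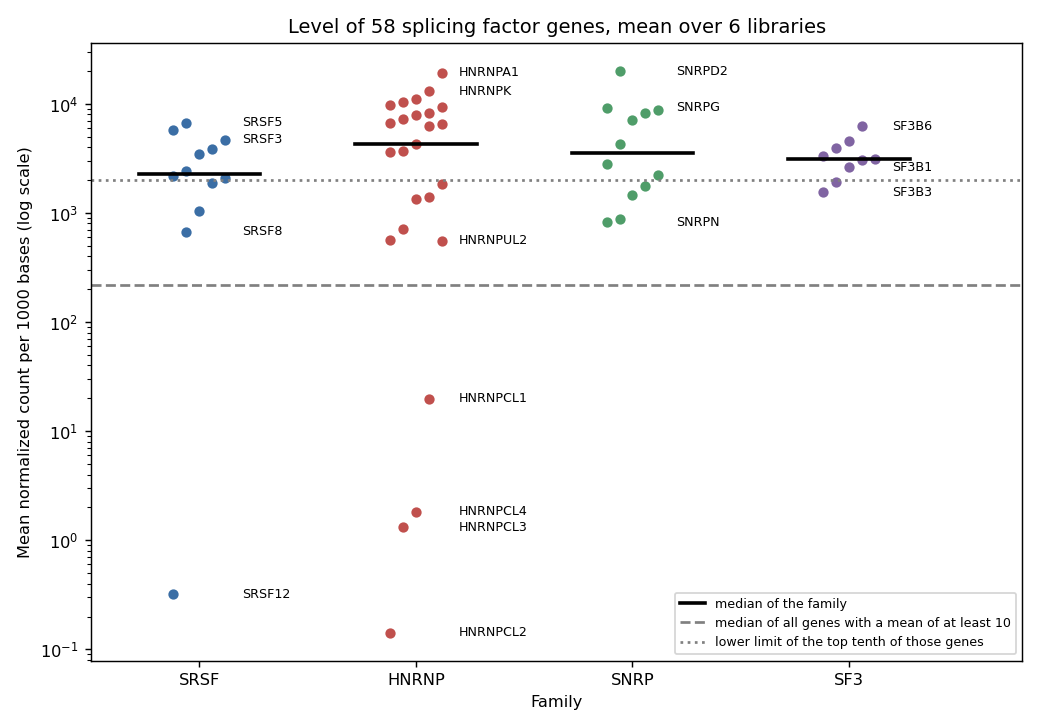
Mean normalized count per 1000 bases of the canonical transcript (log scale) of each annotated member, by family, with 1 point per gene; the black bars are family medians, and the grey lines give the median (218) and the lower limit of the top 10% (1988) of the expressed genes. The families overlap over most of their range, and the low points are SRSF12 and the 4 HNRNPCL genes.

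The median level per 1000 bases was 4279 for HNRNP, 3517 for SNRP, 3126 for SF3 and 2288 for SRSF, and none of these medians carries a test, because genes are not replicates of a condition. This order rests on the length used, since with coding length in its place SNRP was highest (12758) and SF3 lowest (4314). Among expressed members, the highest level exceeded the lowest by 4.01 times in SF3 and by 9.98 times in SRSF, against 24.2 times in SNRP and 970 times in HNRNP. The last value rests on HNRNPCL1 alone, with a mean of 22.4, since HNRNPA1 exceeded the next lowest expressed member, HNRNPA1L2, by 34.4 times. In reads, HNRNP genes took 1.19% of all normalized counts, SRSF 0.252%, SF3 0.210% and SNRP 0.160%, together 1.81%.

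The proteins of the Sm ring are needed in equal number, and their genes are described first. SNRPD2 was the highest of all members per 1000 transcript bases with 19750.05 (HNRNPA1 was highest by union of exons, with 10692, and by coding length, with 64162), rank 125 of the genes ranked, from a mean normalized count of 10171 on a transcript of 515 bases. It was followed by SNRPG with 9206, SNRPB with 8811 and SNRPF with 8244. SNRPE was at 2802, SNRPD3 at 1471 and SNRPD1, the lowest of the ring, at 884. The ring thus spanned 22.4 times on this scale. The transcript of SNRPD1 has 4858 bases, of which 357 are coding. Per 1000 coding bases the same 7 genes lay between 12023 (SNRPD1) and 28732 (SNRPD2), a span of 2.39 times, and undivided means ran from 3726 (SNRPF) to 10171 (SNRPD2).

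The other SNRP genes belong to single particles or replace an Sm protein. SNRPC and SNRPA, proteins of the U1 particle, which recognizes the start of the intron, had 7076 and 4233 per 1000 bases. SNRPA1 and SNRPB2, the proteins A′ and B″ of the U2 particle, had 2202 and 1763. Their order was reversed by union of exons (631 and 1630) and by coding length (3029 and 6296). SNRPN, a homologue of SNRPB from an imprinted locus and best known from brain, was the lowest of the family, with 818 by transcript. On this scale SNRPB exceeded it by 10.8 times. Over coding bases the ratio was 8.25 times and over the union of exons 5.25 times. SNRPN lies on chromosome 15 from 24823637 to 24978723 (GRCh38) and shares 813 exonic bases with SNURF, which had a mean of 16.2, and 141 with SNHG14, which had 3051. How reads at shared bases were assigned was not tested.

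Within SF3A, the members were close. SF3A3 had 3349 per 1000 bases, SF3A2 3126 and SF3A1 1911, a span of 1.75 times that stayed between 1.55 and 1.75 times with each length used. In SF3B, SF3B6, which contacts the branch site adenosine, was highest with 6218 per 1000 transcript bases, whereas SF3B5 was highest by union of exons (4519.6) and by coding length (12087). By transcript SF3B5 followed with 4519.6, SF3B2 with 3962 and SF3B4 with 3067. SF3B1, the large scaffold subunit that is mutated in myeloid malignancy, had 2611 and SF3B3 had 1549. These 6 subunits spanned 4.01 times per 1000 transcript bases and 3.25 times per 1000 coding bases. By undivided mean SF3B1 was the highest (16875) and SF3B5 the lowest (3119), on transcripts of 6463 and 690 bases.

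**Figure D2:**
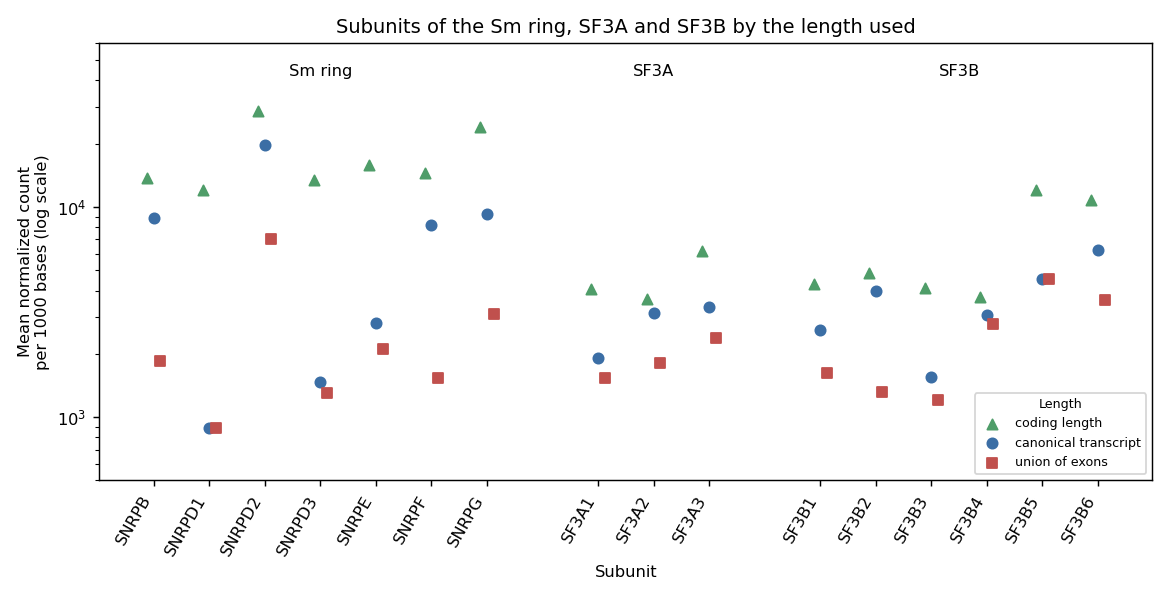
Mean normalized count per 1000 bases (log scale) of the subunits of the Sm ring, SF3A and SF3B, divided by coding length (triangles), canonical transcript (circles) or union of exons (squares), with 1 value per gene over 6 libraries. The Sm genes lie within 2.39 times of each other by coding length and within 22.4 times by transcript length, while the SF3A genes span 1.55 to 1.75 times with any of the 3 lengths.

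Among SRSF genes, SRSF5 had the highest level with 6676 per 1000 bases, followed by SRSF9 with 5770 and SRSF3, the shortest protein of the family, with 4690. These 3 genes made up 49.4% of the summed level of the family by transcript. SRSF3 had by far the most reads, with a mean normalized count of 19828. It stood first by coding length (40301) and by union of exons (2786). By union of exons SRSF5 (1864) and SRSF9 (1680) were below SRSF2 (2447), SRSF6 (2138), SRSF7 (2010) and SRSF1 (2009). By transcript SRSF2, whose product is found in nuclear speckles, had 3857 and SRSF7, which is close in sequence to SRSF3, had 3451. SRSF6, SRSF1 and SRSF4 lay next to each other by transcript, with 2404, 2173 and 2075. They were further apart by union of exons (2138, 2009 and 542) and by coding length (10138, 15609 and 3221). SRSF1, the founding member and a known oncogene, had the second most reads of the family (11613). By transcript SRSF11 had 1869, SRSF10, a splicing repressor when dephosphorylated, 1040 and SRSF8 669. The order within the family moved with the length used, since SRSF9 was above SRSF1 per 1000 transcript bases, with SRSF1 at 0.377 of its level, and below it per 1000 coding bases, with SRSF1 at 1.56 times its level.

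SRSF12 stood apart from the family. Its mean normalized count was 1.16, and the whole reads recovered from this mean were 0, 0, 1, 2, 2 and 2 in the 6 libraries, 7 reads in all. Reads are given in increasing order, because the libraries are known by their size factor alone and carry no group. SRSF10, the member most like it, was 3232 times higher per 1000 transcript bases, 2638 times by union of exons and 6868 times by coding length. These ratios are limited by the 7 reads of SRSF12, with a counting error of 38.0%.

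A feature that the naming rule did not use is shared by the SRSF genes. In GENCODE release 44, all 12 of them have at least 1 transcript annotated as a target of nonsense-mediated decay (100%). Several proteins of this family are known to limit their own expression through poison exons. Which annotated transcripts hold a poison exon was not examined, and the canonical transcript of SRSF8 has 1 exon. Decay transcripts are annotated at 14 of 25 HNRNP genes, 3 of 9 SF3 genes and 3 of 12 SNRP genes, and at 47.5% of the 12444 expressed protein-coding genes. The family counts, unlike the 12444, include members with a mean under 10, namely SRSF12, HNRNPCL2, HNRNPCL3 and HNRNPCL4. SRSF7 has 6 decay transcripts of 12 and SRSF9 5 of 13. In the other families HNRNPA2B1 stands out with 35 of 49, beside HNRNPA1 with 18 of 84, HNRNPU with 9 of 32 and HNRNPH1 with 8 of 49. Transcripts with a retained intron are annotated at 10 of 12 SRSF, 6 of 9 SF3, 15 of 25 HNRNP and 6 of 12 SNRP genes, and at 60.5% of the expressed protein-coding genes. Counts per gene add the reads of every such transcript, so the levels given here do not separate coding from decaying forms.

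**Figure D3:**
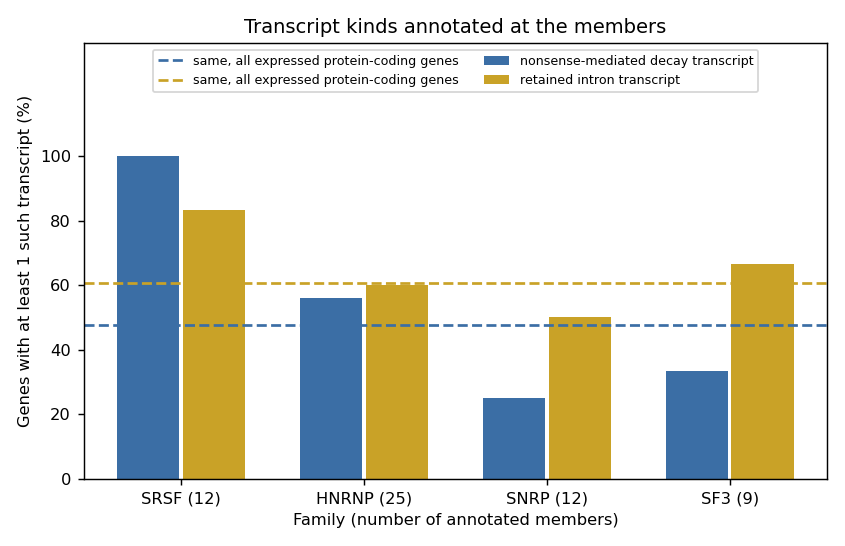
Share of the annotated members of each family (percent) with at least 1 transcript annotated as a nonsense-mediated decay target (blue) or as a retained intron (yellow); the dashed lines give the same shares, 47.5% and 60.5%, over 12444 expressed protein-coding genes. Decay transcripts are annotated at all 12 SRSF genes and at 3 of 12 SNRP genes.

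The HNRNP family held the most abundant members. HNRNPA1 had a mean normalized count of 71605, the 30th highest of the expressed genes, and 19125 per 1000 bases. HNRNPK, a poly(C) binding protein, had 13003 per 1000 bases and HNRNPA2B1, a close homologue of HNRNPA1, 10955. HNRNPH1 followed with 10434, HNRNPC, which binds uridine tracts and guards against exons from Alu elements, with 9796, and HNRNPAB with 9381. HNRNPM had 8143, HNRNPUL1 7962 and HNRNPL, a binder of CA repeats, 7212. HNRNPD, also known as AUF1, had 6659, the nuclear matrix protein HNRNPU 6465 and HNRNPA3 6208.

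Lower levels were found for HNRNPF (4279), HNRNPH3 (3666), HNRNPDL (3592) and HNRNPR (1820). HNRNPH2 had 1396 and the gene without introns HNRNPA0 1345, on a transcript of 8713 bases, of which 915 are coding. The place of HNRNPA0 among the lower levels rests on the length used. By union of exons it also had 1345. By coding length it had 12804, above HNRNPUL1 (12170), HNRNPM (9210) and HNRNPL (8743) and below the other genes of the preceding paragraph. By transcript HNRNPLL, which controls CD45 splicing in lymphocytes, had 707, HNRNPUL2 562 and HNRNPA1L2 556. Within groups of related genes, HNRNPH1 exceeded HNRNPF by 2.44 times, HNRNPH3 by 2.85 times and HNRNPH2 by 7.47 times, and HNRNPL exceeded HNRNPLL by 10.2 times. With the union of exons as length these ratios were smaller, with HNRNPH1 at 0.734 of the level of HNRNPF, 1.53 times that of HNRNPH3 and 1.77 times that of HNRNPH2, and HNRNPL at 4.82 times that of HNRNPLL. HNRNPD and HNRNPDL, which lie 48061 bases apart on chromosome 4, had levels in a ratio of 1.85 by transcript and of 1.03 by union of exons.

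Several members have close copies, and the start of their coding sequences shows how far copies can be told apart by reads. The first 90 coding bases are given for a parent in lower case and for its copies with capitals at each base that is not that of the parent (GENCODE release 44 transcripts, GRCh38, read along the gene).
HNRNPC: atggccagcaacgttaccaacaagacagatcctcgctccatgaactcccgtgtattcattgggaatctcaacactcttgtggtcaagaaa
HNRNPCL1: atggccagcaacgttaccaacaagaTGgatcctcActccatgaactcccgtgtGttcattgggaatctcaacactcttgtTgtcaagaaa
HNRNPCL2: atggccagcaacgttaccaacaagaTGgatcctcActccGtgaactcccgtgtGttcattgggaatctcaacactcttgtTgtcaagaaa
SNRPB: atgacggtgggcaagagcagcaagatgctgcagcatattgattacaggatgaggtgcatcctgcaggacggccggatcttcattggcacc
SNRPN: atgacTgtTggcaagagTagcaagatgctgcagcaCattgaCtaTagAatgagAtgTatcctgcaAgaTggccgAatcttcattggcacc

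HNRNPCL3 and HNRNPCL4 begin with the same 90 bases as HNRNPCL1. HNRNPCL1 had 5 such differences in the first 90 bases, HNRNPCL2 6 and SNRPN 12. Over whole coding sequences the HNRNPCL genes were identical to HNRNPC at 93.1% to 94.7% of 882 bases and SNRPN to SNRPB at 82.2% of 723 bases. SRSF8, the intronless relative of SRSF2, was identical to it at 85.1% of the 663 bases that align without a gap. Its coding sequence is the longer, with 849 bases against 666. SRSF2 was 5.77 times higher than SRSF8 per 1000 transcript bases, 3.66 times by union of exons and 3.23 times by coding length.

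Reads were paired, with 150 bases each, and stretches of this length were looked up base for base in the transcripts of all other genes of GENCODE release 44. Of the windows of HNRNPA1, 23.5% were also found in a gene elsewhere in the genome, most often its pseudogene HNRNPA1P7. The share was 18.2% for HNRNPA1L2, 10.7% for SNRPA1, 7.66% for HNRNPA3, 2.76% for SNRPE, 2.61% for HNRNPL, 0.809% for SRSF6 and 0.763% for HNRNPC. For HNRNPCL3 it was 81.2% and for HNRNPCL4 90.4%, each mostly with the other, and it was 29.0% for HNRNPCL1 and 19.6% for HNRNPCL2. By this measure, levels of these genes are less certain than those of members with no such window, such as all SF3 genes, where the share was 0%. Only exact matches were looked up, so a share of 0% does not show that all reads of a gene had 1 place. SNRPG also had a share of 0%, while its pseudogene rows summed to 3.97% of its count.

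Few reads were counted for the HNRNPCL genes beside HNRNPC, and how reads with several matches were counted is not stated. The windows of HNRNPCL3 and HNRNPCL4 are mostly shared, so their low counts do not show low expression. For HNRNPCL1 and HNRNPCL2 the shared part was 29.0% and 19.6%, and its weight in their counts was not tested. The HNRNPCL genes lie on chromosome 1, with HNRNPCL1 from 12847377 to 12848720 and HNRNPCL3, HNRNPCL2 and HNRNPCL4 following each other at gaps of 52609 and 47059 bases. The recovered reads of HNRNPCL1 were 15, 19, 20, 23, 29 and 29 in the 6 unnamed libraries, and HNRNPC was 497 times higher per 1000 transcript bases, 216 times by union of exons and 1387 times by coding length. HNRNPCL4 had 19 reads in all, between 0 and 6 per library, and HNRNPCL3 had 15, between 1 and 4. HNRNPCL2 had 1 read under one identifier and 0 under the other, where a count of 0 allows up to 3 reads, or a mean of 0.5. HNRNPCL1 and HNRNPCL3 had reads in all 6 libraries, whereas HNRNPCL4 was at 0 in 1 of them. HNRNPA1L2 was not low in this sense, with a mean of 747, and HNRNPA1 exceeded it by 34.4 times per 1000 transcript bases, 19.2 times by union of exons and 82.5 times by coding length.

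**Figure D4:**
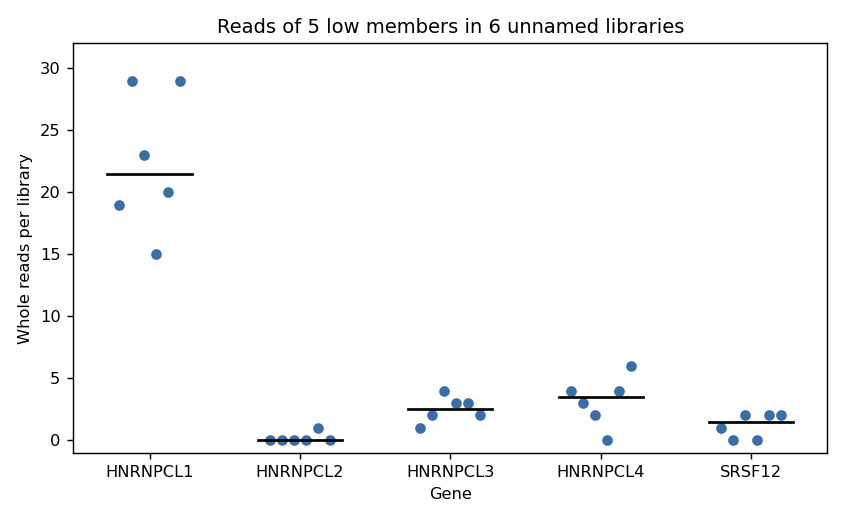
Whole reads per library of the 5 members with a mean under 35 and at least 1 read, recovered from the mean over 6 libraries; each point is 1 library, without a group, and bars are medians. HNRNPCL1 lies between 15 and 29 reads, and the other genes at 6 reads or fewer.

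The rows left out as pseudogenes held few reads. The 184 rows, 74 of them at 0, summed to a mean normalized count of 1892, which is 0.271% of the sum of the members. All are HNRNP or SNRP rows, because the SRSF and SF3 patterns match no pseudogene name. Pseudogenes of SRSF and SF3 genes were therefore not counted. They belong to 20 parents, led by HNRNPA1 with 83 rows, whose sum of 776 is 1.08% of the count of HNRNPA1. SNRPG had the largest share with 3.97%, from 18 rows, and HNRNPA3 had 1.07%. Only 10 rows had a mean of at least 50. HNRNPA1P48 (378) and HNRNPA3P6 (198) were the highest, followed by SNRPGP10 (159), HNRNPCP2 (157), HNRNPA1P10 (153) and HNRNPA3P5 (102), and the others were HNRNPKP4 (80.0), HNRNPCP1 (63.99), HNRNPLP2 (53.8) and HNRNPA1P7 (52.7). HNRNPA1P48, on chromosome 16 from 51553436 to 51647132, is annotated as protein-coding in GENCODE release 44 although its name is that of a pseudogene. Of its 150-base windows 21.1% are also in HNRNPA1, and of those of HNRNPA3P6 49.0% are in HNRNPA3.

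**Figure D5:**
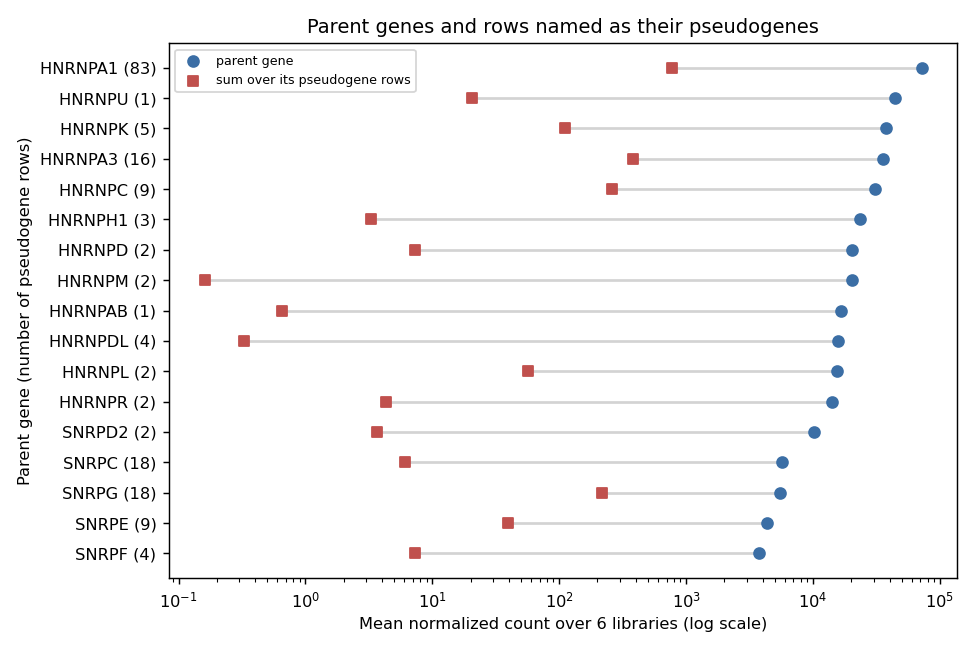
Mean normalized count over 6 libraries (log scale) of each parent gene (circles) and the sum over the rows named as its pseudogenes (squares), with the number of such rows in brackets; 3 parents whose pseudogene rows are at 0 are not drawn. Every sum is far below its parent, with HNRNPA1 at 776 against 71605. Only HNRNP and SNRP parents could be drawn, because the SRSF and SF3 patterns match no pseudogene name.

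Neighbouring genes also bear on single levels. Exons of 28 of the 58 annotated members overlap those of another gene, on the opposite strand in 18. The strand setting of the counting is not stated. HNRNPA1L2 lies wholly within exons of a long non-coding RNA gene on the same strand (ENSG00000273784, 100% of its exonic bases, mean 39.0). Other large overlaps with an expressed gene include those of HNRNPA3 with NFE2L2 (53.6% of its exonic bases, mean of NFE2L2 2317), SRSF9 with GATC (43.6%, 1403) and SRSF2 with MFSD11 (27.7%, 805). HNRNPUL2 shares 44.3% with the read-through gene HNRNPUL2-BSCL2 on the same strand, which had a mean of 71.5. The part of such overlaps in the levels was not tested.

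Against other genes of the splicing machinery, the 4 families were among the more abundant per 1000 transcript bases. This comparison was not made by union of exons or coding length. A list of 117 further symbols, 116 of which were found, had a median level of 1276 per 1000 bases, and 41 of its genes were in the top 10%, compared with a median of 3400 and 38 of 58 for the members. The highest were LSM7 (10693), NONO (10090.3) and the repressor PTBP1 (9411). The lowest were ESRP1 (0.0883) and ESRP2 (2.12), regulators of epithelial splicing, and QKI (0.0886). By group, median levels were 2079 for exon junction complex proteins, 1979 for U1, U5 and U4/U6 proteins, 1549 for U2 auxiliary and branch site proteins, 1343 for SR-related proteins and other regulators, 1109 for Lsm proteins, 988 for kinases and phosphatases of SR proteins and 636 for the Prp19 complex and catalytic step. These lists and families are of unequal size and carry no test.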

How the data were processed

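RNA of FUJIOKA cells (3 shNEG and 3 shSPINK2 libraries) was sequenced by the authors, aligned to GRCh38 with STAR (2.7.11, from the submitters' processing notes), counted per gene with featureCounts and normalised with DESeq2 (1.40.0, likewise). The annotation release and strandedness are not given in the sources used here. The deposited signal is the authors' mean over all 6 libraries of counts divided by size factors. Its 6 further numeric or call columns hold the authors' comparison (fold change, standard error, statistic, p-values and direction) and were not used. No model was therefore fitted and no test made.

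Means were divided by lengths from GENCODE release 44, matched by Ensembl identifier without version (58 of 59 member rows, and 15993 of 16131 genes whose mean was 10 or more). Whole reads of members with a low mean (under 35) were recovered from the mean and the 6 size factors, and the search was tested on simulated data. Named were all members whose mean was 10 or more, pseudogene rows of at least 50 and the 3 highest and lowest listed genes; others were named after their values were seen. The members and lists were chosen with earlier results of these data known. Alternatives changed the length, the filter, the denominator and the pseudogene rows. Python 3.11.15, numpy 2.4.6, pandas 2.3.3, Biopython 1.88 and matplotlib 3.10.9 were used. Some markers and sequences are not reported here.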

Additional observations from a re-analysis of the deposited data

How the results depend on the processing

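The table gave no value per library, so leaving out replicates and any test between shNEG and shSPINK2 were not run. No paired analysis was possible because no result comes from a test and no column carries a replicate number. Dividing by the union of exons gave family medians of 1772 (SRSF), 2380 (HNRNP), 1740 (SNRP) and 1814 (SF3) per 1000 bases, and coding length gave 10135, 9210, 12758 and 4314, so the order of families was not kept. Undivided medians were 7682, 14780, 4735 and 9291 normalized counts. Restricting members to a mean of at least 10 moved the medians of SRSF to 2404 and of HNRNP to 6337, and a mean of at least 50 gave 2404 and 6465. The 3 highest members held 43.2%, 34%, 41.3% and 55.5% of the undivided family counts (SRSF, HNRNP, SNRP and SF3) and 41.7%, 36.0%, 54.0% and 52.4% by union of exons, against 49.4%, 32.3%, 56.2% and 48.5% by transcript. With protein-coding genes as denominator the family shares of counts were 0.257%, 1.21%, 0.163% and 0.214%, and with pseudogene rows added HNRNP had 1.20% and SNRP 0.161%. For SRSF and SF3 no pseudogene rows could be added, since their patterns match no pseudogene name. The span of the Sm ring was 8.0 times by union of exons and 2.39 times by coding length, that of SF3A 1.55 and 1.70 times and that of SF3B 3.74 and 3.25 times. Members in the top 10% by transcript length numbered 47 when all genes above 0 were ranked and 34 with a mean of at least 50, against 38. Between 52 and 53 members exceeded the median of all genes under each length, and the search of all read numbers gave the same reads for 5 of 5 low members. Single levels depend strongly on length: of 54 members, 31 were lower by over 1.5 times by union of exons and 45 higher by over 1.5 times by coding length.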

Other observations

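U2AF1, which recognizes the end of the intron with U2AF2 and is mutated in myeloid malignancy, had a mean normalized count of 131 in the authors' table, and U2AF1L5 had 101.3. Of the 150-base windows of U2AF1, 98.5% are also in U2AF1L5, base for base. How reads with several matches were counted is not stated, so these counts do not show the level of either gene. The count of U2AF1 also enters the list of further splicing genes above. Both genes were named after their values were seen.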
